A study of Homo sapiens with 6 samples.

Results

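The genes described here are the 100 whose reads implied longer transcripts after knockdown of CIRBP in a human immortalized cardiomyocyte line. RNA-seq was performed on 3 libraries of cells given negative control siRNA (NC) and 3 libraries of cells given siRNA against CIRBP (SiCIRBP), in a study of how CIRBP protects heart muscle cells from chemotherapeutics. The labels name the line T0519 and describe the cells as immortalized human cardiomyocytes, whereas the paper names AC16 for the same experiment. Cells of both groups were grown in Prigrow I medium with fetal bovine serum and antibiotics, and no drug is named for either group. The sources used here give neither the time after transfection nor whether the libraries came from separate cultures, so that the spread between libraries may be technical.

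The members were selected on their own implied lengths. An estimated count grows with the length of a transcript and TPM, the abundance scaled by length and library, has that length divided out, so the ratio of count to TPM gives the mean effective length that the quantification assigned to a gene in a library. Genes with at least 500 counts and a TPM of at least 5 in all 6 libraries numbered 6806 of the 58884 in the deposited table. Each ratio was divided by the library's median over these genes, and the lowest SiCIRBP value exceeded the highest NC value for 501 of them, or 7.36%. CIRBP is among the 501 and was left out by the rule, and the 100 genes with the largest difference of mean log2 value became the members. The implied lengths are therefore a description with no test, and their groups do not overlap by construction. They are printed in bases, on a scale fitted to genes with 1 annotated transcript, which adds an offset of 258 to 268 bases. Log2 differences and folds are of the scaled ratios, before that offset. The printed bases would give other folds, and in places another order of members.

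Most human genes produce several transcripts that differ in where they start, which exons and introns they keep and where they are cleaved and polyadenylated. Cleavage follows a hexamer, most often AAUAAA, that lies shortly before the 3′ end and is read by the cleavage and polyadenylation specificity factor, and the use of a later site gives a longer 3′ untranslated region (UTR). CIRBP is a cold-inducible RNA-binding protein known for binding UTRs, for effects on mRNA stability and, with its relative RBM3, for effects on the choice of polyadenylation site.

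The 3′ ends of the longest annotated transcripts are shown for 5 of the leading members. A mean length is higher where more of the assigned molecules are longer transcripts, whether or not the longest is among them. The 5 shown end where the annotated gene ends, which a longest transcript need not do, as in SLC35E2B. Whether these ends were used more in SiCIRBP was not tested. Each run is the last 30 bases of the transcript on its own strand, read from GENCODE 29 on GRCh38, and the capitals mark the hexamer in its DNA letters. They are UBE2S at chr19:55399745-55399774 (minus strand), RALGPS2 at chr1:178921812-178921841 (plus strand), NUFIP2 at chr17:29255836-29255865 (minus strand), UBASH3B at chr11:122814444-122814473 (plus strand) and VPS41 at chr7:38722963-38722992 (minus strand).
UBE2S: agtgcatAATAAAaataatatttgccctta
RALGPS2: tttctattgaAATAAAttacttaaaattat
NUFIP2: ttgttgAATAAAaaattttaaagtttctga
UBASH3B: tgatttAATAAAaagaaacttctcagttga
VPS41: aAATAAAatataaaatatgtgttaatggtc
The runs were picked among the leading members that hold the hexamer in these 30 bases, and MYO1E, ARMC8 and HIF1AN are not shown for that reason. AATAAA, searched on the transcript strand only, occurred in the last 50 bases of the longest transcript of 64 of the 100 members, against 62.4% of the 6795 genes past the minimum that are in GENCODE 29. ATTAAA, the common variant, occurred in 21 members and 17.9% of those genes, and either hexamer in 82 members and 76.4%.

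CIRBP itself, the siRNA target, had its lowest NC value above its highest SiCIRBP value. Its level as a normalized count (CPM, scaled by library size and its TMM factor) was 86.4, 85.8 and 91.0 in NC_1, NC_2 and NC_3 and 54.8, 24.3 and 46.3 in SiCIRBP_1, SiCIRBP_2 and SiCIRBP_3. The implied length of CIRBP was 1092, 1096 and 1074 bases in the NC libraries and 1349, 1449 and 1256 bases in the SiCIRBP libraries. The log2 difference of its scaled ratio was 0.38. Library totals ranged from 25726259 to 29919566 estimated counts. The paper left NC_1 and SiCIRBP_2 out of its test, so values are given below with and without them. Of 14 cardiomyocyte markers, 11 were under 1 TPM in every library, TNNT2, MYH6, MYH7, ACTC1, RYR2 and TTN among them, and the summed level of the list was 20.4 to 26.7 TPM in NC and 15.3 to 18.9 TPM in SiCIRBP. By contrast, 6 of 8 fibroblast markers were at 1 TPM or more in every library, with sums of 940 to 1105 TPM in NC and 560 to 1653 TPM in SiCIRBP. Of the other lists, 2 of 4 smooth muscle markers were at 1 TPM or more throughout (sums of 327 to 368 TPM in NC and 147.5 to 1254 TPM in SiCIRBP). Of the 4 endothelial markers 1 was at 1 TPM or more throughout, and PECAM1, CDH5 and VWF were under 1 TPM. That list summed to 3.12 to 4.56 TPM in NC and 2.57 to 5.22 TPM in SiCIRBP. Of the 3 immune markers 1 was at 1 TPM or more throughout and PTPRC was under 1 TPM. Their sums were 9.04 to 10.45 TPM in NC and 11.17 to 13.09 TPM in SiCIRBP. The part of these lists in the length differences was not tested, and in bulk RNA fewer cells of a type cannot be told apart from less RNA per cell.

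Across the members, the median implied length was 2859, 2774 and 2862 bases in the NC libraries and 3395, 3439 and 3547 bases in the SiCIRBP libraries. Over all genes past the minimum the corresponding medians were 2451, 2422 and 2431 bases and 2462, 2450 and 2477 bases. The log2 length difference ran from 0.21 to 0.62 among the members, with a median of 0.28, or 1.21-fold. Over all 6806 genes the median was -0.01, the quartiles were -0.04 and 0.03, and the 99th percentile was 0.28. The difference amounted to a median of 620 bases (range 152 to 2944), with 65 members above 500 bases. Members also varied more between libraries of a group, with a median pooled SD of 0.10 on the log2 scale against 0.04 over all genes past the minimum. NC_1 gave the highest NC value for 60 members, NC_2 for 22 and NC_3 for 18, so the NC library that the paper set aside lay nearest to SiCIRBP for most of them. In the SiCIRBP group the highest value came from SiCIRBP_1 for 19 members, SiCIRBP_2 for 41 and SiCIRBP_3 for 40. Without NC_1 and SiCIRBP_2, the median difference of the same 100 genes was 0.30, and 56 of them would still be chosen by the rule.

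**Figure D1:**
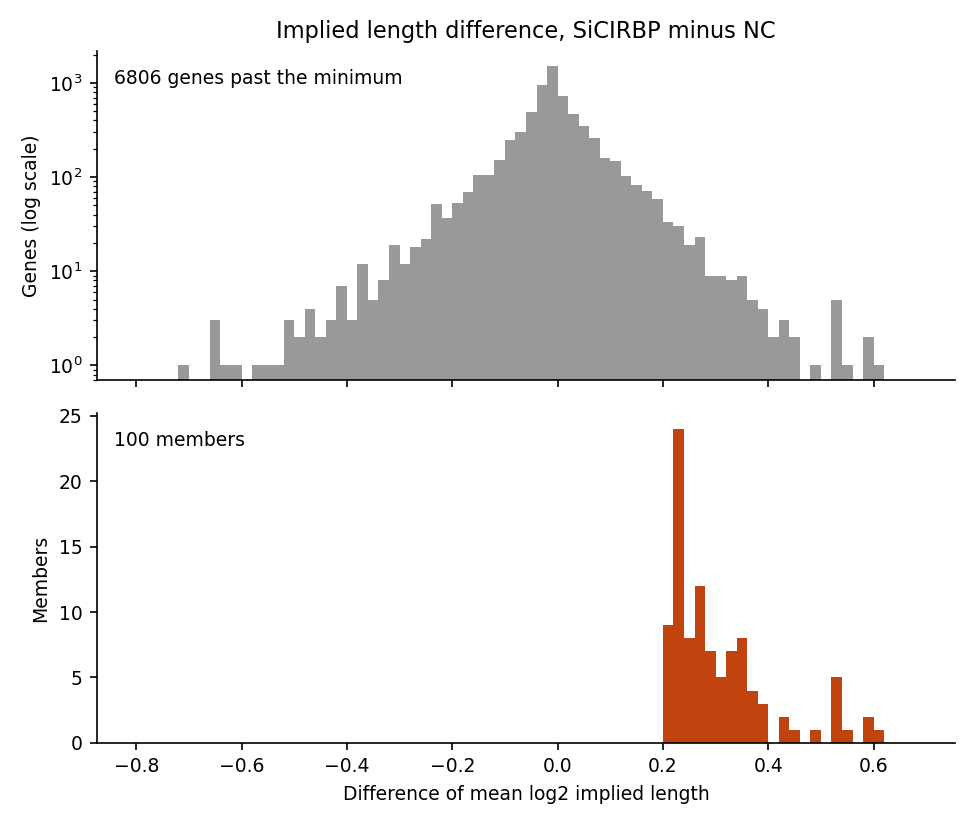
Histograms of the difference of mean log2 implied length, SiCIRBP minus NC (x axis), for all 6806 genes past the minimum (upper panel, number of genes on a log scale) and for the 100 members (lower panel, number of genes). The members fill the right-hand tail from 0.21 to 0.62, while the median of all genes lies at -0.01.

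Proteins of membrane traffic and of endosomes and lysosomes formed, with 17 genes, a group as large as any among the members. The groups by role were made after the members were known and were not counted over other genes. By GO terms, endosomes, lysosomes, the Golgi or vesicles were named for 25.3% of the members and 20.3% of the genes past the minimum. RALGPS2, an exchange factor for Ral GTPases, was at 4214, 4119 and 3776 bases in the NC libraries and at 6701, 6616 and 4916 bases in the SiCIRBP libraries. SiCIRBP_3 was the lowest of its group, and the longest annotated transcript has 7512 bases. VPS41, a subunit of the HOPS complex that tethers vesicles to lysosomes, was at 3491, 3452 and 3450 bases in NC and at 4318, 4965 and 4659 bases in SiCIRBP. Its NC libraries were nearly equal, and all SiCIRBP libraries lay well above them. RAB31, a small GTPase of the trans-Golgi network and endosomes, was at 2501, 2083 and 2196 bases in NC and at 2672, 3024 and 2941 bases in SiCIRBP. RUBCN, a negative regulator of autophagy and endosome maturation, was at 3780, 3348 and 3453 bases in NC and at 4011, 5185 and 4506 bases in SiCIRBP. In both genes NC_1 stood closest to the SiCIRBP group, whose lowest value came from SiCIRBP_1.

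VPS53, a subunit of tethering complexes that serve the return of endosomal vesicles, was at 4073, 3525 and 3335 bases in NC and at 4257, 4407 and 5454 bases in SiCIRBP. CCDC93, part of a complex that works with the retriever in endosomal recycling, was at 5026, 3923 and 3990 bases in NC and at 5256, 5251 and 5983 bases in SiCIRBP. For both, the gap between NC_1 and the nearest SiCIRBP library was small beside that of the other NC libraries. GGA2, a clathrin adaptor of the Golgi, was at 3854, 3600 and 3571 bases in NC and at 4426, 4970 and 4672 bases in SiCIRBP, which left a clear gap between the groups. The other 10 genes of this group include the sorting nexins SNX1 and SNX8, the tethering subunit VPS52, the WASH complex subunit WASHC4 and STAM2, which acts on ubiquitinated cargo. Over the 17 genes the log2 length difference ran from 0.22 to 0.59, with a median of 0.33.

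Of the members, 8 act on RNA or in translation. WDR33, the subunit of the cleavage and polyadenylation specificity factor that contacts the AAUAAA hexamer, was at 5318, 3947 and 4387 bases in NC and at 6711, 5592 and 7298 bases in SiCIRBP. SiCIRBP_2 lay a little above NC_1, and the other SiCIRBP libraries lay further above it. WDR33 has 5 transcripts in GENCODE 29, of which the longest has 9471 bases and the next 3574 bases. NUFIP2, an RNA-binding partner of the fragile X protein, was at 6007, 6162 and 5281 bases in NC and at 8690, 6916 and 9786 bases in SiCIRBP. It has 2 annotated transcripts, of 10850 and 559 bases, and the mean length moved from 51.1% to 76.8% of the way from the shorter to the longer. PTCD3, a protein of the small mitochondrial ribosomal subunit, was at 2028, 2235 and 1301 bases in NC and at 2498, 2713 and 2321 bases in SiCIRBP, and NC_2 nearly reached SiCIRBP_3. NOL9, a polynucleotide kinase of ribosomal RNA processing, was at 4812, 4305 and 4607 bases in NC and at 5682, 5557 and 6375 bases in SiCIRBP. MARS, the cytosolic methionyl-tRNA synthetase, lay lower in the ranking with 1711, 1714 and 1635 bases in NC and 1941, 2007 and 1918 bases in SiCIRBP. The remaining 3 were the initiation factor EIF5, the helicase DDX51 and the nuclear matrix protein SAFB2.

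The largest log2 difference of the scaled ratio belonged to UBE2S, an E2 enzyme that extends ubiquitin chains for the anaphase-promoting complex. Its implied length was 1174, 1137 and 1484 bases in NC and 1549, 2222 and 1708 bases in SiCIRBP, so that NC_3 came close to SiCIRBP_1. The longest of its 4 transcripts has 2548 bases and the next 743 bases. ARMC8, a subunit of the CTLH ubiquitin ligase, was at 1458, 2385 and 2375 bases in NC and at 2723, 2857 and 3009 bases in SiCIRBP. Here NC_1 was the low library, which raised the difference. TULP4, a tubby-like protein with a SOCS box, was at 4091, 3648 and 3314 bases in NC and at 5473, 4804 and 4993 bases in SiCIRBP. FBXO9, an F-box substrate adaptor, was at 1725, 1800 and 1582 bases in NC and at 2161, 2136 and 2152 bases in SiCIRBP, where the 3 libraries were nearly equal. The ubiquitin group held 8 members in all, with TRIM25, ARIH1, RNF19A and MARCH3 as the other ubiquitin ligases.

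Signalling proteins made up 16 members. UBASH3B, a phosphatase that restrains tyrosine kinase signalling, was at 4195, 4074 and 4441 bases in NC and at 6681, 6641 and 5038 bases in SiCIRBP. SiCIRBP_3 was again the lowest of its group. Among the others were the kinases ABL2, CSNK1G1 and MKNK2, the phosphatase subunits PPP1CB and PPP4R2, and the oxytocin receptor OXTR, with log2 differences of 0.22 to 0.33. Transcription and chromatin factors numbered 17, with log2 differences of 0.21 to 0.36. TLK2, a tousled-like kinase of histone chaperones and the first of these, was at 2676, 2565 and 2492 bases in NC and at 3066, 3328 and 3403 bases in SiCIRBP. Its relative TLK1 was a member too, with a log2 difference of 0.23.

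Of the 2 oxygenases, HIF1AN, the asparagine hydroxylase that restrains hypoxia-inducible factors, showed the largest difference in bases of all members. Its implied length was 7959, 6903 and 5507 bases in NC and 9660, 9649 and 9892 bases in SiCIRBP, means of 6789 ± 1230 and 9734 ± 137 bases (SD, n = 3). The SiCIRBP libraries agreed far more closely than the NC libraries did. Its longest transcript has 13011 bases, of which 11860 are 3′ UTR, and none of the other 4 exceeds 1042 bases. MYO1E, an unconventional myosin of the cell cortex, was at 3388, 2479 and 3313 bases in NC and at 3749, 4262 and 5698 bases in SiCIRBP, so that SiCIRBP_3 stood well above the rest. Its longest transcript has 8673 bases and the second 952 bases.

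Transporters and metabolic enzymes held 10 members and mitochondrial proteins and chaperones 5. PITPNA, which carries phosphatidylinositol between membranes, was at 2244, 2133 and 1976 bases in NC and at 2659, 2727 and 2748 bases in SiCIRBP. DDHD2, a lipase of phospholipids and triglycerides, was at 2363, 2285 and 1850 bases in NC and at 2448, 3523 and 2452 bases in SiCIRBP, so that SiCIRBP_2 alone stood far from the NC libraries. SLC35E2B, of a family of nucleotide sugar transporters, was at 3425, 2712 and 2995 bases in NC and at 4107, 3607 and 3828 bases in SiCIRBP. MSTO1, which affects the distribution and shape of mitochondria, was at 1319, 1266 and 1193 bases in NC and at 1549, 1625 and 1580 bases in SiCIRBP, with little spread in either group. The chaperones among these 5 were DNAJB6 and CLPX. Of members with other roles, N4BP1, a ribonuclease, was at 3783, 3636 and 3720 bases in NC and at 4518, 5907 and 4696 bases in SiCIRBP, with SiCIRBP_2 the highest. NBPF1, of the neuroblastoma breakpoint family, was at 2097, 2817 and 2602 bases in NC and at 3399, 3298 and 3378 bases in SiCIRBP. The last 2 groups were DNA repair and replication with 5 members, ATM, FANCC, DONSON, TOP3A and CHAMP1, and the cytoskeleton and cilia with 5, MYO1E among them.

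**Figure D2:**
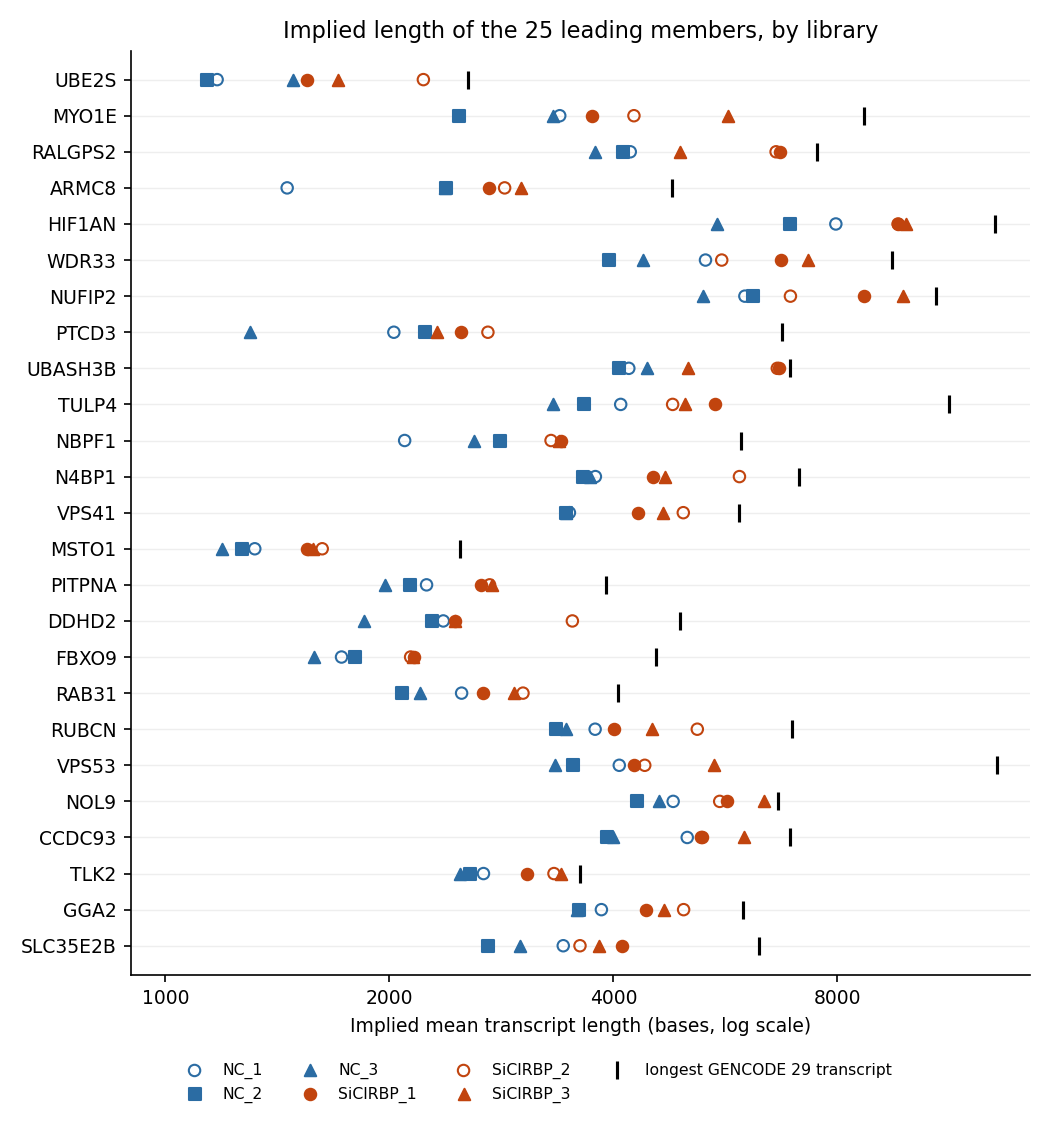
Implied mean transcript length in bases (x axis, log scale) of the 25 members with the largest differences (rows, largest first), with a symbol for each of the 6 libraries (blue for NC, orange for SiCIRBP, open circles for NC_1 and SiCIRBP_2) and a black bar at the longest GENCODE 29 transcript. Blue and orange symbols do not overlap in any row, as the rule demands, and all symbols lie left of the bar.

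The limit of 100 cut through a continuous series of values. The last members inside were MARCH3, a ubiquitin ligase, PIGK, a subunit of the transamidase that attaches proteins to lipid anchors, and JADE2, a chromatin protein, each with a log2 difference of 0.21. The first genes outside were PRRX1 with 0.21, SMAD5 with 0.21 and PDCD4 with 0.20. In PRRX1 the implied length was 3146, 2950 and 2977 bases in NC and 3320, 3573 and 3592 bases in SiCIRBP.

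The annotation of the members differed from that of the genes past the minimum in several lengths. The rule used annotation only indirectly, through the transcript lengths that the quantification averaged, so the 2 are not independent. The gene spanned a median of 51630 bases among the members and 31650 bases over all genes past the minimum. The longest transcript had a median of 5150 bases among the members and 3734 bases over all genes past the minimum. Its 3′ UTR had a median of 3138 bases in the 93 members with an annotated one, against 1636 bases in 5589 genes past the minimum, and exceeded 2000 bases in 78.5% and 42.6%. The 100 genes chosen by the opposite rule (shorter implied transcripts) had longer transcripts still, with a median of 7386 bases, but a 3′ UTR of 2194 bases, above 2000 bases in 52.3%. In 34 members the longest transcript was more than 2 times as long as the next, against 20.4% of the genes past the minimum. A transcript with a retained intron was annotated for 85 members, for 64.2% of the genes past the minimum, for 75.95% of those with 5 or more transcripts and for 71.7% of the opposite 100. Transcripts marked for nonsense-mediated decay were annotated for 63 members, against 47.0%, 56.2% and 48.5%. The members had between 2 and 35 annotated transcripts with a median of 11, equal to that of the opposite 100 and above the median of 9 over the genes past the minimum. GC content of the longest transcript differed little, with medians of 48.0% in the members, 49.2% over the genes past the minimum and 47.5% in the opposite 100. These shares are descriptions without a test. The rule can choose only genes with transcripts of different length, so part of this excess is built in.

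Within the annotated range of each gene, with 0% at its shortest and 100% at its longest transcript, the mean length of the members stood at a median of 52.5% in NC and 66.9% in SiCIRBP. Genes past the minimum stood at 65.8% and 66.9%. The opposite 100 stood at 47.5% and 37.2%. Of the members, 42 lay below the middle of their range in NC and 21 in SiCIRBP. The direction of these shifts follows from the rule, since the position rescales the lengths that chose the members and the opposite 100. In 2 members, OXTR and the topoisomerase TOP3A, the implied length exceeded the longest GENCODE 29 transcript in at least 1 library, and the annotation release behind the deposited values is not given in the sources used here.

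Members came from 21 chromosomes, with 10 each on chromosomes 2 and 17, 9 each on chromosomes 1 and 7 and 8 on chromosome 15. Of the genes past the minimum, 6.29% lie on chromosome 2, 6.49% on chromosome 17, 10.1% on chromosome 1, 4.22% on chromosome 7 and 3.64% on chromosome 15. The GO terms in the deposited table named endosomes, lysosomes, the Golgi or vesicles for 25.3% of the members that have terms and for 20.3% of the genes past the minimum. They named protein kinase activity for 8.08% and 4.50%, ubiquitin for 13.1% and 12.7%, the nucleus for 53.5% and 52.4%, nuclear specks for 3.03% and 4.19%, mitochondria for 11.1% and 14.7% and RNA binding for 10.1% and 15.4%.

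The counts of members in the lists are to be read against their share of all genes past the minimum, 100 of 6806. Of 16 cleavage and polyadenylation factors past the minimum, WDR33 was a member, 2 were longer and 6 shorter in every SiCIRBP library, and the median log2 length difference was -0.02. The 13 SR proteins and TRA2 included no member, none longer and 4 shorter in every SiCIRBP library. Among 24 hnRNP and PTB proteins 2 were longer and 6 shorter, among 47 spliceosome components 3 and 9, among 7 splicing kinases 1 and 2, and among 26 RBM family and cold-inducible proteins 2 and 4. The 9 factors of nonsense-mediated decay counted 2 longer and 2 shorter, and the 16 snoRNA hosts and long noncoding RNAs 1 and 4. None of these lists other than the cleavage factors held a member. Of 20 aminoacyl-tRNA synthetases, MARS was a member, 5 were longer and 2 shorter. Ribosomal proteins (83 genes) and oxidative phosphorylation subunits (74 genes) held no member, with 1 and 2 longer and 7 and 5 shorter. The remaining lists held no member either, with 1 longer and 1 shorter of 8 interferon-stimulated genes, 4 and 3 of 17 integrated stress response genes, 4 and 2 of 23 genes of G1-S and replication, and 1 and 5 of 18 mitosis genes. Over all 6806 genes, 501 were longer and 1210 shorter, so that 29.3% of the separated genes were longer. That share depended on the scale, and was 48.7% when ratios were divided by the median over genes with 1 annotated transcript and 64.9% when lengths were taken in fitted bases.

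The counts of the members, unlike their lengths, did not move to one side. The median log2 CPM difference was 0.00 over the 6 libraries, against 0.03 over the genes past the minimum, while the median log2 TPM difference was -0.49 against -0.11. TPM was thus lower in SiCIRBP for members by more than the general shift, which follows from the rule, since TPM is the count divided by the implied length. In 41 members CPM was higher and TPM lower in SiCIRBP, in 50 both were lower and in 9 both were higher. Opposite signs were found in 17.8% of the genes past the minimum. All SiCIRBP libraries exceeded all NC libraries in CPM for 15 members, where 22.3% of the genes past the minimum were, and lower in every library for 13, where 15.6% were. TPM was lower in every SiCIRBP library for 60 members, against 24.9%, and higher in 2, against 10.9%.

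The estimated count of UBE2S was 14102, 11141 and 11016 in NC and 13763, 12697 and 12344 in SiCIRBP, and the groups overlapped. Its TPM was 699, 639 and 394 in NC and 452, 277 and 377 in SiCIRBP, so that only NC_3 stood beside the SiCIRBP libraries. WDR33 had 2090, 1566 and 1765 counts in NC and 2581, 2248 and 2448 in SiCIRBP, all above the NC libraries. The TPM of WDR33 went the other way, with 18.6, 21.2 and 18.7 in NC and 16.95, 18.1 and 15.4 in SiCIRBP, all below. For HIF1AN the counts were 3764, 3261 and 3730 in NC and 4231, 3678 and 4167 in SiCIRBP, which overlapped before scaling for depth. Its CPM did not overlap, with 131.9, 126.6 and 122.3 in NC and 144.9, 143.1 and 148.4 in SiCIRBP, all above. The TPM of HIF1AN was 22.0, 24.5 and 31.1 in NC and 19.1, 16.8 and 19.1 in SiCIRBP, all below, as in WDR33.

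**Figure D3:**
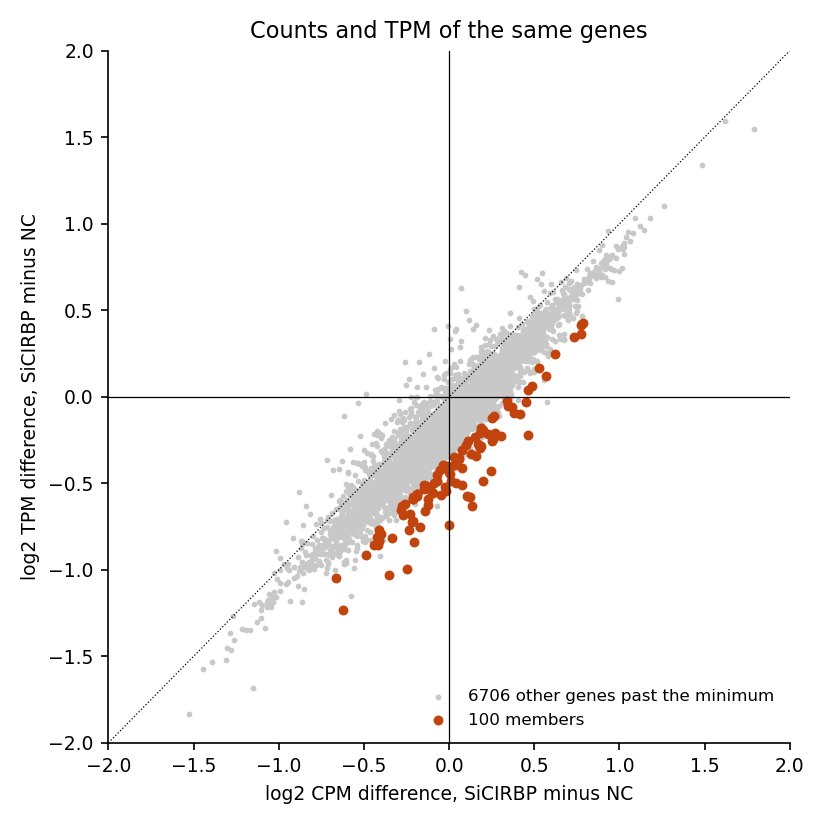
Difference of mean log2 TPM (y axis) against difference of mean log2 CPM (x axis), SiCIRBP minus NC over 6 libraries, for the 100 members (orange) and the 6706 other genes past the minimum (grey), with a dotted line where both are equal. Members lie along the lower edge of the grey points, with medians of 0.00 in CPM and -0.49 in TPM.

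Differential expression was also fitted across all genes, by the quasi-likelihood test of edgeR with Benjamini-Hochberg adjusted p-values, on the estimated counts of NC_2, NC_3, SiCIRBP_1 and SiCIRBP_3, the libraries of the paper's test. Because the same contrast chose the members, the calls are given as a description. At an adjusted p under 0.05 and at least 2-fold, 1 of the 100 members was called higher in SiCIRBP and 0 lower, where 1.82% and 1.80% of the 15421 genes tested were called. At an adjusted p under 0.05 alone, 13 members were higher and 13 lower. The shares were 14.2% and 11.9% of the genes past the minimum, and 9.62% and 9.76% of all genes tested. The median log2 fold change was 0.05 in the members and 0.03 in the genes past the minimum. The member called was VANGL1, a membrane protein of planar cell polarity, with 994, 757 and 784 counts in NC and 1234, 860 and 1908 in SiCIRBP. SiCIRBP_2 lay within the NC range. Over the 4 libraries it had a log2 fold change of 1.00 with a standard error of 0.22 (adjusted p = 0.0262, edgeR with Benjamini-Hochberg adjustment), against 0.68 (adjusted p = 0.173, the same edgeR test) over all 6. Its log2 fold change was 1.10 without NC_2, 0.90 without NC_3, 1.30 without SiCIRBP_1 and 0.62 without SiCIRBP_3. Each of these fits has 1 library in an arm, and so only the fold is given here. Among other members past the adjusted threshold, MYO1E was lower with a log2 fold change of -0.75 (adjusted p = 0.00828) and WDR33 higher with 0.57 (adjusted p = 0.0105) in the same edgeR fit. Over all 6 libraries neither passed, with -0.16 for MYO1E (adjusted p = 0.761) and 0.45 for WDR33 (adjusted p = 0.112) in edgeR, and SiCIRBP_2 held more MYO1E counts than any NC library. When each gene's implied length entered the 4-library fit as an offset, the median log2 fold change of the members was -0.32. The offset is the measure that chose the members, so it lowers them by construction, and nothing is read from the log2 fold changes of -1.47, -1.08 and -1.11 it gave for MYO1E, UBASH3B and ABL2. Across the genes past the minimum, the rank correlation of length difference and log2 fold change of counts was 0.08, and across the members 0.03. Both are descriptions over genes that share the same libraries.

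Several members share sequence with other genes, which can make the assignment of their reads uncertain. More than 10% of the 31-base words of the annotated transcripts occurred in another gene, on either strand, for 25 members. Such words were counted for the members only, so this is not a trait set against other genes. Matches on the opposite strand matter only where reads do not keep their strand, which was not examined. CCZ1B shared 63.9% of its words with CCZ1, SLC35E2B 52.6% with SLC35E2A, MSTO1 31.8% with MSTO2P, TLK2 25.1% with TLK2P1, NBPF1 17.2% with NBPF12 and UBE2S 15.5% with UBE2SP1. On the opposite strand, WDR33 shared 25.4% with SFT2D3, and SLC7A6, an amino acid transporter, 42.8% with SLC7A6OS. NUFIP2, HIF1AN, VPS41 and UBASH3B shared under 6% of their words with all other genes together.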

How the data were processed

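Each gene has an estimated count in each of the 6 libraries, which the authors made from reads assigned to transcripts and left without normalization. It also has a TPM, in which the authors divided that count by transcript length and scaled it by library. The deposited tables hold these, together with their own DESeq2 fold changes and p-values, which were not used. The submitters' notes name fastp, HISAT, RSEM and hg38 without roles or versions, and the annotation release is not given in the sources used here. Groups came from the sample labels. Genes were matched by identifier to GENCODE 29 on GRCh38, which gave 6795 of the 6806 genes past the minimum, and their GENCODE names are used (MARCH3 and N4BP1 carry other symbols in the table). For lengths in bases, the ratio of count to TPM was fitted in each library to the length of 108 genes. These were the genes, of 306 with 1 annotated transcript, whose GENCODE length equalled the deposited one and was at least 1000 bases. The line was refitted repeatedly to the genes close to it. Between 60 and 62 of the 108 lay within 0.5% of the line, with a fragment offset of 258 to 268 bases. That closeness is partly built in by the choice of genes and the refitting.

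For the count test, rounded values entered edgeR 4.0.16 under R 4.3.3 (TMM, filterByExpr, glmQLFit and glmQLFTest, Benjamini-Hochberg adjustment over all genes tested). Tables were handled with pandas 2.3.3 in Python 3.11.15. Both procedures were tested on simulated data. The alternatives were other minimums, scalings and libraries, the replicate block, RLE size factors, no filter, DESeq2 1.42.0 and a length offset, and lengths in fitted bases were added after seeing the data. Libraries of the same number did not deviate together (correlations of -0.12, 0.01 and -0.03 over 15217 genes), so the numbers were not taken as pairs. Named genes are the 25 members with the largest differences, members of the fixed lists or called by edgeR, and those at the limit. Other members named to describe a group, and those set out for their counts or shared sequence, were chosen after their values were seen. The members and lists were chosen with earlier results of these data known, and the grouping by role and the GO words after the members were known. Each member had at least 507 counts in every library, and the files do not give the error of assigning reads to transcripts. Some of the genes and sequences examined are not reported here.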

Additional observations from a re-analysis of the deposited data

How the results depend on the processing

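The median length difference of the 100 genes was between 0.26 and 0.30 under the other scalings and with libraries left out. Its sign could not turn when libraries were left out, since the rule had separated all of them. The 100 largest differences with no demand on overlap, of which 65 are members, had a median of 0.30. The number of genes longer in every SiCIRBP library was 501, and between 404 and 644 with other minimums or with the median over genes with 1 annotated transcript. It was 976 with lengths in fitted bases (the cause was not tested) and 1129 with the paper's 4 libraries, and between 700 and 857 with 1 library left out, where fewer libraries had to be separated. Those above 1.5 times were 857 without NC_1, 773 without NC_3, 803 without SiCIRBP_1 and 800 without SiCIRBP_3. Of the members, between 55 and 96 were chosen again under these settings.

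In edgeR over the paper's 4 libraries 281 genes were called higher and 278 lower. Over all 6 libraries edgeR called 0 and 0, with 3603 genes at an unadjusted p under 0.05. With the replicate block over 6 libraries it called 1 and 0, with 2933 at an unadjusted p under 0.05, and 0 members. Since the same numbers did not pair the libraries, this block is only an alternative. With no filter on low counts 468 were called higher, and with DESeq2 over the 4 libraries 169. Leaving out 1 library leaves an arm with 1 library, which is assumed to vary like the 2 of the other arm, and these counts say nothing of stability. It gave 24 to 618 higher and 37 to 558 lower (48 and 74 without NC_2, 24 and 37 without NC_3, 618 and 549 without SiCIRBP_1, 376 and 558 without SiCIRBP_3), and 0 to 2 members called higher. Of the members, 1 was called higher with TMM or RLE size factors, and 0 over all 6 libraries, with the block, with no filter, with the length offset and with DESeq2. The log2 fold change of VANGL1 was 0.98 with no filter and 0.997 with DESeq2, short of 2-fold. With the length offset 3 members were called lower, as the offset is the measure that chose them. The causes of the other changes in the calls were not tested. The rule demands at least 500 counts in every library, so no member could lie below that depth. The number of reads that separate the transcripts of a gene is not in the files.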
